A study of Rattus norvegicus with 12 samples.

Results

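Total lung of wild-type (WT) Sprague-Dawley rats at day 4 of Sugen-Hypoxia (SuHx) was compared with total lung of WT Sprague-Dawley rats kept in normoxia, sampled at day 0, with 3 RNA-seq libraries in each group. The comparison covers the 15182 of 19230 rows of the deposited gene table that had a mean signal of at least 1 over these 6 libraries. Another 4048 rows lay under that minimum: 2894 were listed at 0 in all 6 libraries and 1154 were above 0, with means of up to 0.9996, against 1.001 for the lowest row tested. The series held 12 libraries in 4 groups. The 3 lungs of Ahr-KO (Ahr knockout by the label) Sprague-Dawley rats at day 4 of SuHx entered the fit only as a further estimate of the spread, and endothelial cells of WT rats in normoxia were used only in an alternative fit. No label says that the replicates are separate rats, and the p-values may thus reflect technical spread only.

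SuHx pairs Sugen (SU5416), a small molecule that blocks the tyrosine kinase of VEGF receptors, with low oxygen, and rats treated in this way develop pulmonary arterial hypertension with thickened and occluded small arteries. VEGF keeps lung endothelium alive, and its loss together with hypoxia is followed by endothelial injury, growth of smooth muscle and deposition of matrix. SU5416 also activates the aryl hydrocarbon receptor (AhR), a transcription factor that binds planar aromatic compounds, pairs with ARNT and switches on genes of drug and pollutant breakdown. The 2 groups differ in the drug, the oxygen and the day at once, and these cannot be told apart here. In whole lung, fewer cells of a type and less RNA per cell cannot be told apart either.

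Values below are signals, read here as estimated reads scaled by 1 factor per library, and a set of 3 values follows the column suffix (replicate 0, 1, 2). Totals of the 6 libraries were 21185834 to 22880386, which on that reading stand for 22477213 to 28592815 estimated reads. The lung label was checked on its markers: surfactant protein Sftpc was at 201197, 311307 and 220058 in normoxia and 172941, 136158 and 240194 under SuHx. Ager, of alveolar type 1 cells, was at 55100.1, 59217 and 45040.4 in normoxia and 51996, 46734 and 63419 under SuHx. Along the first principal component of the 6 libraries, with 47.56% of the variance, normoxia lay between -56.27 and -29.04 and SuHx between 25.28 and 59.78. The second component, with 18.68%, set normoxia 1 (34.22) and normoxia 2 (-54.1) apart from each other. Normoxia 2 also held the most cardiac muscle RNA: the summed signal of 17 cardiac markers, 16 of them tested, was 1953, 1552 and 14207 in normoxia and 3837, 3186 and 2855 under SuHx. Its part in the results was not tested beyond leaving the library out, which gave 2280 calls over all rows.

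At an adjusted p under 0.05 (limma, Benjamini-Hochberg), 2050 rows were called, 13.5% of those tested: 1077 were higher under SuHx (7.09%) and 973 lower (6.41%). The libraries of the 2 groups did not overlap in 5588 rows (36.8%), among them 2048 of those called. Rises were larger than falls: 492 rises and 255 falls were at least 2-fold, 187 and 46 at least 4-fold, and 30 and 5 at least 10-fold. The median called rise was 1.86-fold and the median called fall 1.65-fold. Log2 fold changes are given ± standard error. Folds compare geometric means after 1 was added to each signal, so changes of low genes are understated. The median log2 fold change of all tested rows was -0.04. Of the called rows, 720 (483 higher, 237 lower) were called in each of the 6 fits that left out 1 WT library, and the total fell to 863 without SuHx 0, 954 without normoxia 0, 1097 without SuHx 2 and 1148 without normoxia 1. In each gene said below to have risen or fallen, the 3 libraries of a group lay apart from the 3 of the other. Unless a loss is stated, each such gene was called in all of those 6 fits. Calls were rarest among the weakest rows (2.96% at a mean signal of 1 to 10) and most frequent above a mean of 10000 (27.5%).

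**Figure D1:**
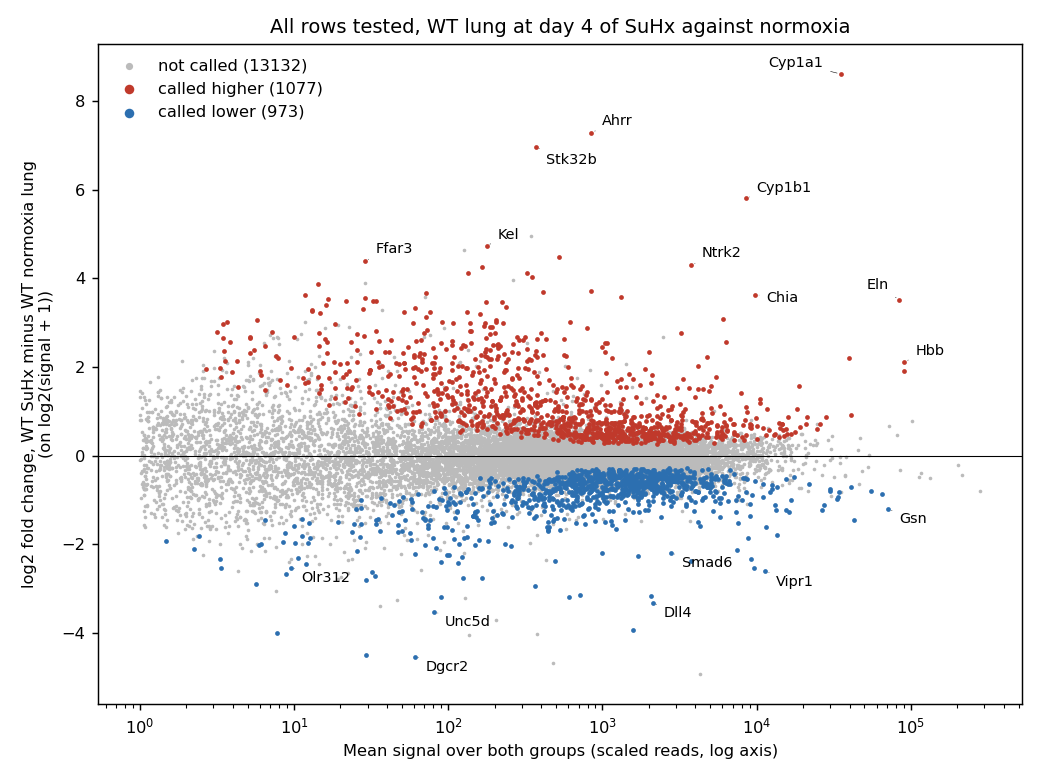
Each point is 1 of the 15182 rows tested, with its mean signal over both groups on a log axis and its log2 fold change (SuHx minus normoxia) on the vertical axis. Red points are the 1077 rows called higher and blue points the 973 called lower; Cyp1a1, Ahrr, Stk32b and Cyp1b1 stand at the top, and Dgcr2, Unc5d and Dll4 among the lowest.

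Genes of the AhR response were among the largest rises. Cyp1a1, the cytochrome P450 that marks AhR activity, was at 476, 39.2 and 298 in the normoxia lungs and at 65459, 68888 and 75070.5 in the SuHx lungs, so that the lowest SuHx library lay far above a normoxia group that itself spread over more than 10-fold. Cyp1b1, a related P450, had a narrow baseline of 306, 268 and 301 and reached 13776, 20789 and 15459.7 (log2 fold change 5.81 ± 0.23, limma adjusted p = 7.16e-06). Ahrr, the repressor that AhR induces against itself, went from 5.57, 17.0 and 9.20 to 1466, 2107 and 1480.4 (log2 fold change 7.28 ± 0.37, limma adjusted p = 2.03e-05). The quinone reductase Nqo1, a target of AhR and of NRF2, rose from 1268, 1377 and 1150.3 to 8410.2, 12102 and 12169. A row that merges the Ugt1a genes, which attach glucuronic acid to drugs and bilirubin, was at 549.8, 609.9 and 592 in normoxia and 1753, 1788 and 2113 under SuHx. In the list of AhR targets, 7 of 10 tested members rose, 1 fell and 2 were not called (7 rose and 1 fell with any 1 library left out), with no overlap between the groups in any of the 10. Cyp1a2 and Aldh3a1 were the 2 not called. The other called members are named after their values were seen. Tiparp was at 761, 1146 and 868 in normoxia and 3158, 3963 and 2628 under SuHx. Slc7a5 rose 2.00-fold from 290.4, 332 and 351 to 577, 698 and 670.2. Xdh fell 1.91-fold from 6138, 7553 and 4630.5 to 3045, 3005 and 3343. The partners and chaperones of the receptor did not share this: 0 of 10 tested members rose, 2 fell and 8 were not called (0 rose and 0 fell without SuHx 0, SuHx 2, normoxia 0 or normoxia 2, 1 and 2 without SuHx 1 and 0 and 1 without normoxia 1). Ahr itself was at 5565, 3103 and 3950.3 in normoxia and 1996, 3073 and 1739.6 under SuHx, a 1.86-fold fall whose call was lost without SuHx 0, SuHx 2, normoxia 0 or normoxia 2 (limma adjusted p up to 0.159). Sp1, a general transcription factor, fell 1.40-fold, a call lost without SuHx 0, SuHx 2, normoxia 0, normoxia 1 or normoxia 2 (limma adjusted p up to 0.126). The merged row of Arnt and Ctsk was at 2705, 2799 and 2407 in normoxia and 2366, 2345 and 1954 under SuHx and was not called (limma adjusted p = 0.124).

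The AhR-ARNT pair is known to bind the letters GCGTG, and the promoters of the called AhR targets are shown with these letters in capitals (CACGC where they lie on the opposite strand). They run 5′ to 3′ along the gene over the 250 bases before the start of transcription, in RefSeq's rat assembly GRCr8, which is another build than the rn6 of the deposited table. Ahrr lies at chr1:30821969-30822218 (plus strand), Cyp1b1 at chr6:21094315-21094564 (plus strand), Tiparp, which encodes an ADP-ribosyltransferase that dampens AhR, at chr2:152063519-152063768 (plus strand), Nqo1 at chr19:52220268-52220517 (minus strand), the amino acid transporter Slc7a5 at chr19:66872413-66872662 (minus strand) and the xanthine dehydrogenase Xdh at chr6:27282069-27282318 (plus strand).
Ahrr: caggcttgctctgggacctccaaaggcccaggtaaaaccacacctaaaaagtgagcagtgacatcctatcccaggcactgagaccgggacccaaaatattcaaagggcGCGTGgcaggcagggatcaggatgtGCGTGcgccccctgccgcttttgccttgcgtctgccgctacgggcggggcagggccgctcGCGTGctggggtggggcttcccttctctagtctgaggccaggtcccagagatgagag
Cyp1b1: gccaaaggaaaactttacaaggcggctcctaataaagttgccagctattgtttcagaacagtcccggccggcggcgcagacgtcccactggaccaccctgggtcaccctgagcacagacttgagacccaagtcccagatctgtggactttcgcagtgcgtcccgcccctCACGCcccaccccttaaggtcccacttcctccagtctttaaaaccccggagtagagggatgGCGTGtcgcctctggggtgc
Tiparp: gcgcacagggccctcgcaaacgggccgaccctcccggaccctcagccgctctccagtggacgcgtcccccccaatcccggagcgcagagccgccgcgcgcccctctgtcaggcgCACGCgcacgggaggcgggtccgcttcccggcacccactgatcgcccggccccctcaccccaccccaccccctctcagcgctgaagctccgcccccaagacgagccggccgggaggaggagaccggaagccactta
Nqo1: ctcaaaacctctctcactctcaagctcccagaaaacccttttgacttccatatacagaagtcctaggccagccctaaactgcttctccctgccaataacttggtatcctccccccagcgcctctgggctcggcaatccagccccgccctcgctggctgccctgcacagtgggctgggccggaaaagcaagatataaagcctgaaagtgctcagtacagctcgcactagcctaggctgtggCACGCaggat
Slc7a5: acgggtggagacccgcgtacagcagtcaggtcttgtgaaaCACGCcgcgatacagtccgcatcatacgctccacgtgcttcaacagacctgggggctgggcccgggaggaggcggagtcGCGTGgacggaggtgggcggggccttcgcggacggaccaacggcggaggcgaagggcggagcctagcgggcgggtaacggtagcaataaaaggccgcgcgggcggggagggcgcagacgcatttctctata
Xdh: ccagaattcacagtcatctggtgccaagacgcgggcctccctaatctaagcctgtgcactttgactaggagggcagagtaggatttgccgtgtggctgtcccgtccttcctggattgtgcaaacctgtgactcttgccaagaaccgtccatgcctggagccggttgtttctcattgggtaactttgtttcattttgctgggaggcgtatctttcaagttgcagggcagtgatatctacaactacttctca
Over the window from 250 bases before to 50 bases after the start, Ahrr and Slc7a5 each held GCGTG 3 times (for Slc7a5, 1 of them after the start), Cyp1b1 2 times, Tiparp and Nqo1 1 time, and Xdh, the member that fell, 0 times. All 5 AhR targets that rose and had a promoter in the table thus held the letters, but so did 31.1% of all 27457 promoters, and 47.5% of rows called higher, 41.7% of those called lower and 46.5% of those not called. The letters overlap those of hypoxia response elements, and a match is a description, not a bound site. Of 14188 tested rows with 1 symbol, 11372 had a promoter in the table.

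Many enzymes that handle drugs and pollutants fell, in contrast to Cyp1a1, Cyp1b1 and the Ugt1a row. Of the xenobiotic list, 2 of 25 tested members rose, 12 fell and 11 were not called, and the median log2 fold change was -0.94 (2 rose and 9 to 14 fell with any 1 library left out). The flavin monooxygenases, which oxidise nitrogen and sulfur in drugs and are abundant in lung, showed it at high signal: Fmo1 was at 16614, 20896 and 8773 in normoxia and 2739.6, 3289.6 and 2669.7 under SuHx. Fmo2 was at 18389, 24626 and 6824 in normoxia and 2329, 3135 and 2230.3 under SuHx. In both genes normoxia 2 was the lowest normoxia library and still lay above all SuHx libraries. Cyp2a3, a nasal and lung P450 that activates nitrosamines, fell from 1033, 1051 and 1143 to 219, 48.2 and 154. Cyp2e1, which oxidises ethanol, went from 779.6, 1273 and 450.2 to 149, 113 and 185. Cyp4b1, a lung P450, fell 2.58-fold, and the row of the carboxylesterases Ces1d and Ces1e was at 21206, 28320.4 and 13878 in normoxia and 6306, 5877 and 5333 under SuHx. The 2 risers of the list were the Ugt1a row above and Gstp1, a glutathione transferase named here after its values were seen, so that 12 of the other 23 fell.

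**Figure D2:**
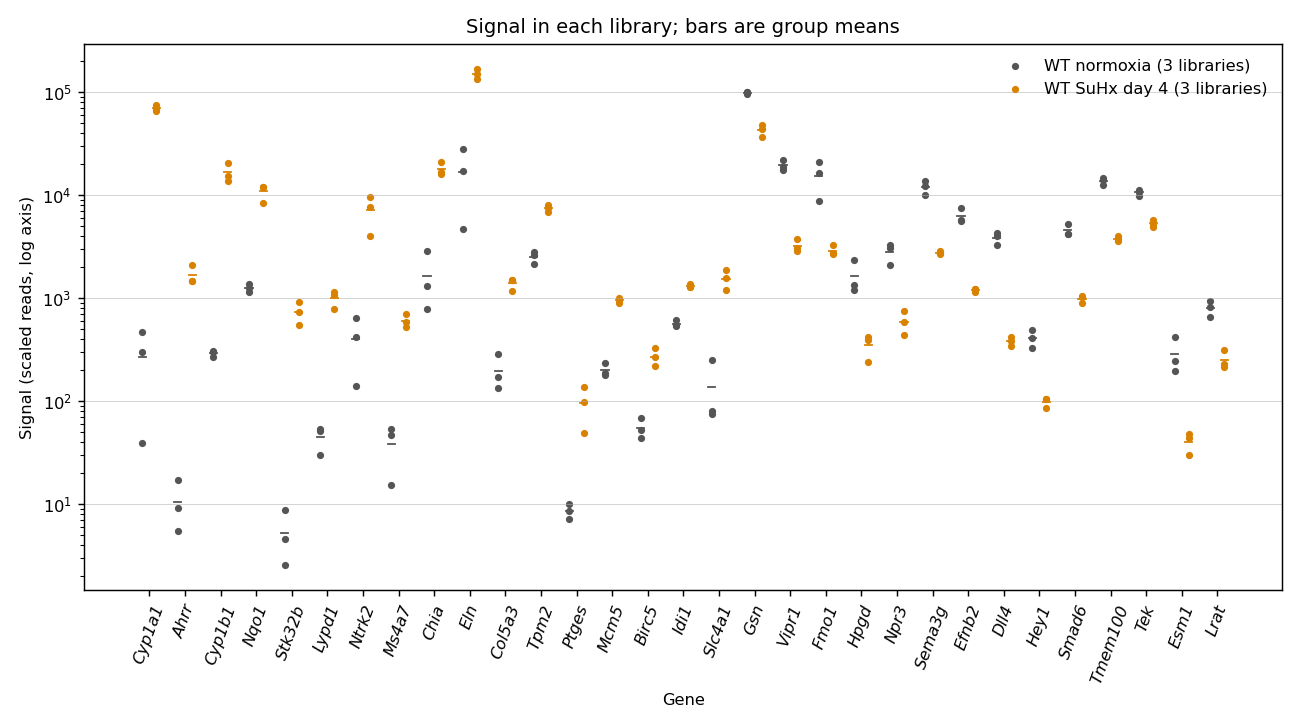
Signal (log axis) of 31 genes named in the text in each library of WT normoxia (grey) and WT SuHx (orange), with bars at the group means. In each of these genes the 3 libraries of one group lie apart from the 3 of the other, from Cyp1a1 (normoxia at most 476, SuHx at least 65459) to Lrat.

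Several other large rises were in genes outside the AhR list, and whether these share a role was not tested. Stk32b, a serine/threonine kinase of little-known function, went from 8.75, 2.56 and 4.60 to 733, 912 and 549 (log2 fold change 6.95 ± 0.42, limma adjusted p = 5.29e-05). Lypd1, a membrane-anchored protein of the Ly6 family that binds nicotinic receptors, was at 51.7, 29.9 and 53.8 in normoxia and 1068, 1162 and 787 under SuHx. Ntrk2, the receptor of BDNF, rose from 644, 139.8 and 421 to 7665, 9734 and 3988, with a wide spread in both groups. Ms4a7, a membrane protein of macrophages, went from 54.1, 15.3 and 46.8 to 708, 526 and 589. Chia, an acidic chitinase made by lung epithelium and macrophages, went from 790.0, 2891 and 1311 to 16942, 16138 and 20823. Pmfbp1, best known from sperm, rose 12.6-fold. Ffar3, a receptor for short-chain fatty acids, was at 1.59, 0 and 4.60 in normoxia and 26.5, 79.5 and 60.3 under SuHx. Alkal1, a ligand of the ALK and LTK receptors, was at 1.59, 0 and 1.53 in normoxia and 24.6, 16.8 and 26.1 under SuHx. The normoxia values of Ffar3 and Alkal1 stand for a few reads each, so no fold is given for them. In the Ahr-KO SuHx lungs, Stk32b was at 2.32, 1.77 and 0.76, and Lypd1 at 318, 263 and 256. Ms4a7 was at 86.7, 79.7 and 66.9 there, and Pmfbp1 at 24.8, 23.0 and 16.7. Ntrk2 was at 13954, 12539 and 9105 in those lungs, and Chia at 5894, 10873 and 12798.5. Ffar3 was at 20.1, 54.9 and 55.5 there, and Alkal1 at 9.29, 10.6 and 35.7. The part of AhR in these rises was not tested.

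The largest falls are named among calls kept without each library and with no overlap between the groups. Their separation was thus a condition of being named. Dgcr2, an adhesion receptor gene, dropped from 86.7, 81.8 and 183 to 3.78, 3.82 and 3.72, which stand for a few reads each (log2 fold change -4.53 ± 0.89, limma adjusted p = 0.0120). Its row was uneven within the other groups, at 6.97, 81.5 and 3.80 in the Ahr-KO SuHx lungs and 71.7, 1.21 and 83.6 in the normoxia endothelial cells. Slc24a2, a sodium-calcium-potassium exchanger, was at 126, 212 and 148 in normoxia and 14.2, 17.6 and 17.9 under SuHx. Col6a4, a collagen VI chain, was at 1757, 1500.1 and 618 in normoxia and 163, 97.1 and 146 under SuHx. Bank1, a scaffold of B cell receptor signalling, fell 7.70-fold. The somatostatin receptor Sstr1 (6.50-fold), the adhesion gene Thsd7a (5.24-fold), the tenascin gene Tnr (5.46-fold) and the olfactory receptor row Olr312 (5.75-fold) fell too, each from a low signal. Among genes called with each library left out, Gsn, which encodes the actin-severing protein gelsolin, had the largest fall in mean signal: it was at 101549, 100099 and 95786 in normoxia and 44211, 37161 and 48563 under SuHx. Adgrf5, an adhesion receptor that controls surfactant and is rich in lung endothelium, was at 36110.5, 44214 and 31920.4 in normoxia and 17565, 19742 and 14289 under SuHx. Acer2, a Golgi ceramidase that feeds sphingosine 1-phosphate, was at 11938, 24465 and 16369 in normoxia and 5461, 5077 and 6143 under SuHx.

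Genes of the cell cycle rose. Of the mitosis and spindle genes, 32 of 36 tested members rose, 0 fell and 4 were not called, with a median log2 fold change of 1.99, and 32 were called higher with any 1 library left out. Prc1, which bundles the central spindle, was at 502, 402 and 456 in normoxia and 1832, 1643 and 1467 under SuHx (log2 fold change 1.86 ± 0.12, limma adjusted p = 7.11e-05). Ccna2, cyclin A2, was at 325, 264 and 306 in normoxia and 897, 896 and 786 under SuHx. Bub1, a kinase of the spindle checkpoint, was at 237, 191 and 199 in normoxia and 786, 671 and 607 under SuHx. Kif23, a kinesin of cell division, rose 2.83-fold from 383, 314 and 422 to 1159, 1009 and 987. Birc5, survivin, which anchors the chromosomal passenger complex, went from 69.2, 44.3 and 52.9 to 267, 221 and 326. Mki67, the Ki-67 antigen of cycling cells, went from 850.1, 417 and 632 to 2188, 2149 and 1707. Normoxia 1 was the lowest library in each of these 6 genes, and the median of the list there was -0.53 against 0.45 in normoxia 0, both on the log2 scale relative to the mean of the normoxia lungs. The SuHx libraries lay between 1.93 and 2.23 on that scale.

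Of the DNA replication genes, 28 of 35 tested members rose, 0 fell and 7 were not called (median log2 fold change 1.12), with 24 to 28 higher when 1 library was left out. Mcm5, Mcm6 and Mcm4 are subunits of the helicase that opens the DNA double strand. Mcm5 was at 179.8, 189 and 233 in normoxia and 962, 895 and 1008 under SuHx (log2 fold change 2.25 ± 0.14, limma adjusted p = 6.21e-05). Mcm6 was at 379, 326 and 403 in normoxia and 1035, 1135 and 1110.3 under SuHx. Mcm4 was at 477, 418 and 468 in normoxia and 1036, 1145 and 1056 under SuHx. Uhrf1, which carries DNA methylation through replication, went from 173, 107 and 127 to 619.6, 629 and 609.9. Thymidine kinase Tk1 went from 342, 237 and 295 to 976, 979.9 and 948. The 3 SuHx libraries of Uhrf1 and of Tk1 lay close together, against rises of 4.64-fold and 3.35-fold. Of the targets of p53, the factor that halts the cycle after DNA damage, 11.1% were called, near the 13.5% of all rows. In that list, 1 of 18 tested members rose, 1 fell and 16 were not called (0 rose and 0 fell without SuHx 0, SuHx 2, normoxia 0 or normoxia 1, 3 and 1 without SuHx 1 and 0 and 2 without normoxia 2). Those were the pro-apoptotic Bax (1.43-fold higher) and Tp53inp1 (1.56-fold lower), and the call of Bax was lost without SuHx 0, SuHx 2, normoxia 0, normoxia 1 or normoxia 2 (limma adjusted p up to 0.132) and that of Tp53inp1 lost without SuHx 0, SuHx 2, normoxia 0 or normoxia 1 (limma adjusted p up to 0.0659).

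The letters TTTGAA and TTCGAA are those of the cell cycle homology region (CHR), which the DREAM and MuvB complexes bind in genes of late cell cycle. Promoters of 3 mitosis genes of the text that held them are shown with these letters in capitals. Both strands were searched, and these matches read TTTGAA along the gene. Birc5 lies at chr10:103571896-103572145 (plus strand), Prc1 at chr1:143659231-143659480 (plus strand) and Mki67 at chr1:199952594-199952843 (minus strand), again over the 250 bases before the start in GRCr8.
Birc5: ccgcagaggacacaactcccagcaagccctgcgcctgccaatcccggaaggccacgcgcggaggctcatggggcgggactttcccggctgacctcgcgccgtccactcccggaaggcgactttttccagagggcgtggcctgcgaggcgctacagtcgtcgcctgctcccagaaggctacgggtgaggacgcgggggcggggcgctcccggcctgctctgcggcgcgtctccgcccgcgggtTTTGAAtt
Prc1: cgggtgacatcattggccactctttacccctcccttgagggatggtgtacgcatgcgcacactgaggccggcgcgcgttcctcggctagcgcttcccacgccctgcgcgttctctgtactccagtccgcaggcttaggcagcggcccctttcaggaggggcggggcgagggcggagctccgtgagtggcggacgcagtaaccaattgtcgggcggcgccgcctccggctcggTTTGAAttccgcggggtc
Mki67: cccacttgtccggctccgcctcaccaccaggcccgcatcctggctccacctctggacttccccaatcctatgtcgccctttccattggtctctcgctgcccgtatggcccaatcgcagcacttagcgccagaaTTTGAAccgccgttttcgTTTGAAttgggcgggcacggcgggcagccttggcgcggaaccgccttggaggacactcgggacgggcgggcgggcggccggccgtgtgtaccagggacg
Of the 28 mitosis genes called higher with a promoter in the table, 21 held the letters (75.0%), as did 24 of all 31 tested with one (77.4%). Among DNA replication genes called higher the count was 4 of 22 (18.2%). Of all promoters 19.5% held the letters, as did 180 of 812 rows called higher (22.2%), 94 of 724 called lower and 1341 of 9836 not called (13.6%).

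**Figure D3:**
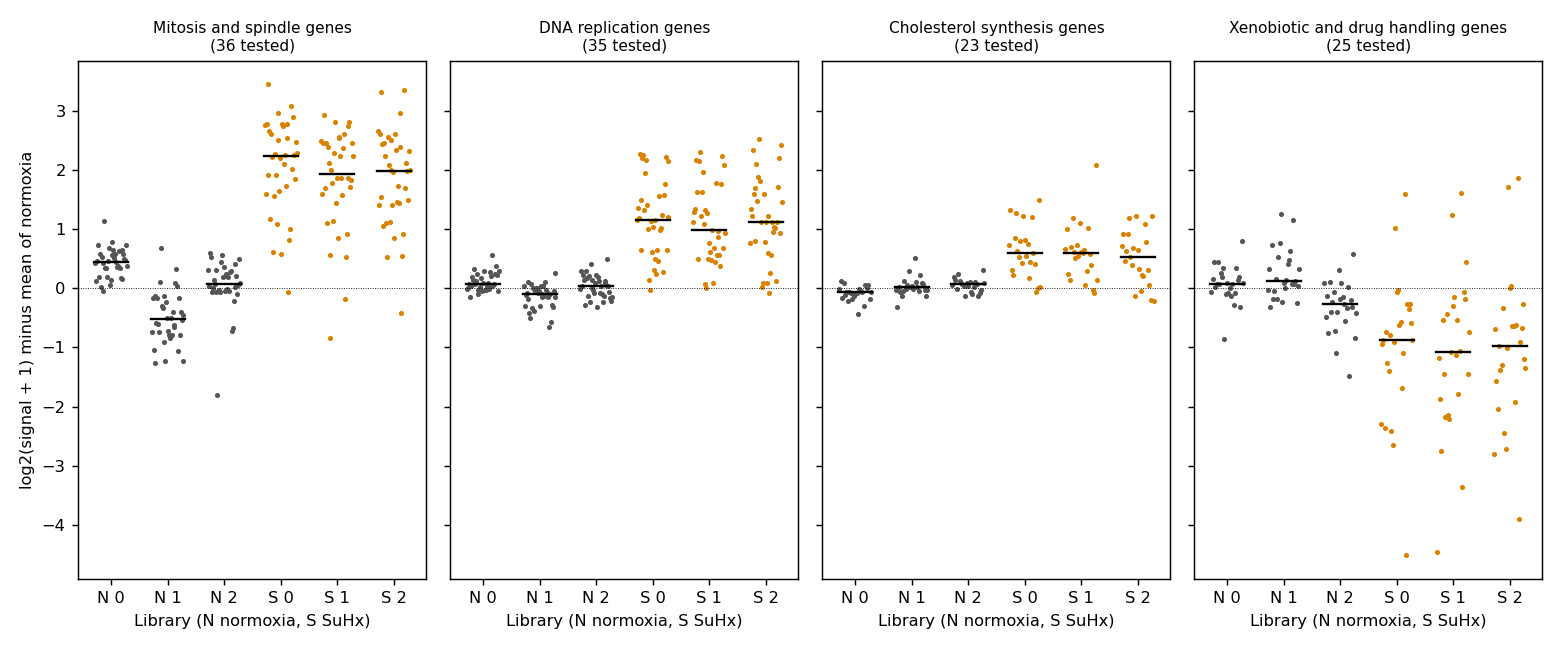
Each point is 1 tested gene in 1 library, as log2(signal + 1) minus the gene's mean over the normoxia lungs, for 36 mitosis, 35 DNA replication, 23 cholesterol synthesis and 25 xenobiotic genes; N marks normoxia (grey) and S SuHx (orange), and black bars are medians. The SuHx medians lie between 1.93 and 2.23 for mitosis and between -1.08 and -0.87 for xenobiotic genes.

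Matrix genes rose, those of the elastic fibre among them. Elastin, Eln, was at 17387, 4698 and 27990.0 in normoxia and 148981, 135336 and 168962 under SuHx, so the highest normoxia library (normoxia 2) and the lowest SuHx library were far apart although the normoxia values themselves spread widely. Of the elastic fibre genes, 10 of 21 tested members rose, 2 fell and 9 were not called (median log2 fold change 0.76), and 5 rose and 1 fell without SuHx 0, 8 and 1 without SuHx 1, 7 and 1 without SuHx 2 or normoxia 0 and 9 and 1 without normoxia 2. Fbn1, fibrillin, which forms the microfibrils around elastin, rose 2.15-fold, and Ltbp2, a binder of fibrillin, went from 6698, 6065 and 5661 to 15059, 15755 and 13761. Efemp2, fibulin-4, which brings the crosslinking enzyme to elastin, was at 652, 693 and 742 in normoxia and 1520.1, 1331 and 1823 under SuHx. The crosslinking enzyme Loxl2 was at 1220.4, 1267 and 1298 in normoxia and 3272, 3176 and 2554 under SuHx.

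Of the collagen genes, 10 of 26 tested members rose, 0 fell and 16 were not called, with a median log2 fold change of 0.42, and 3 rose and 0 fell without SuHx 0, 6 and 0 without SuHx 1, 5 and 0 without normoxia 1 and 7 and 1 without normoxia 2. The collagen VI chain Col6a4, whose fall is given above, is not on this list. Col5a3, a minor fibrillar chain, went from 172, 136 and 287 to 1179, 1513 and 1492 (log2 fold change 2.87 ± 0.25, limma adjusted p = 0.000328). Col5a1 rose 1.80-fold, and Col1a1, the main chain of scar collagen, went from 9834, 5590.3 and 14203 to 30925, 28633 and 23606. Col4a1, of basement membranes, was at 32298, 25458 and 26666 in normoxia and 55540.2, 62035 and 43736 under SuHx (1.90-fold higher), a call lost without SuHx 0 or normoxia 1 (limma adjusted p up to 0.0747). Col6a2 rose 1.65-fold, a call lost without SuHx 0 (limma adjusted p up to 0.0617). Of the laminins and other basement membrane genes, 3 of 13 rose, Lama4 (1.69-fold), Nid1 (1.69-fold) and Lamc1 (1.55-fold). Each lost its call without at least 1 library: 0 rose and 0 fell without SuHx 0 or normoxia 1, 1 and 0 without SuHx 1 or normoxia 2 and 5 and 0 without SuHx 2.

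Among matricellular and provisional matrix genes, 9 of 21 tested members rose, 0 fell and 12 were not called (median log2 fold change 0.78), and 4 rose and 0 fell without SuHx 0 and 5 and 1 without normoxia 1. Thbs2, thrombospondin 2, which limits vessel growth, was at 120.1, 101 and 213 in normoxia and 833, 574 and 634 under SuHx. Versican, Vcan, a large proteoglycan of young matrix, rose 2.41-fold, and Wisp1, a secreted protein of the CCN family, went from 35.0, 18.8 and 34.5 to 96.5, 148 and 98.3. The call of Tgfbi (2.01-fold higher) was lost without SuHx 2 (limma adjusted p up to 0.0508), and that of biglycan, Bgn (1.82-fold higher), lost without SuHx 0 or normoxia 1 (limma adjusted p up to 0.0667). Among matrix proteases and their inhibitors, 6 of 26 tested members rose, 0 fell and 20 were not called (3 rose and 0 fell without SuHx 0, 5 and 1 without SuHx 2 and 6 and 1 without normoxia 2). Adamts12, a protease that cleaves cartilage matrix proteins, was at 604, 538 and 584 in normoxia and 1583, 1636 and 1046 under SuHx. The membrane-bound Mmp23 was at 189, 121 and 248 in normoxia and 499, 486 and 532 under SuHx. The macrophage elastase Mmp12 rose 2.66-fold from 33.4, 38.4 and 42.9 to 95.5, 100.2 and 113. Adamts7 rose 1.55-fold, a call lost without SuHx 0 or normoxia 1 (limma adjusted p up to 0.0627). The row of Mmp14 and Mrpl52 rose 1.67-fold, a call lost without SuHx 0 or SuHx 2 (limma adjusted p up to 0.0644).

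Contractile genes of smooth muscle rose too. Of the smooth muscle markers, 8 of 16 tested members rose, 0 fell and 8 were not called (median log2 fold change 0.71), and 6 to 8 rose with 1 library left out. Tropomyosin Tpm2 was at 2628, 2149 and 2829 in normoxia and 7557, 6829 and 8132 under SuHx (log2 fold change 1.57 ± 0.13, limma adjusted p = 0.000284). Desmin, Des, was at 1953, 1392 and 2354 in normoxia and 5190.3, 6187 and 4858 under SuHx. The calponin Cnn1 rose 2.49-fold. Transgelin, Tagln, went from 6594, 5481 and 6927 to 15873, 16429 and 11472. Caldesmon, Cald1, went from 6148, 5618 and 6966 to 10309, 10898 and 8935. Acta2, smooth muscle actin, was at 4340.5, 2815 and 6134 in normoxia and 12755, 11263 and 10073 under SuHx (2.68-fold higher), a call lost without SuHx 0 (limma adjusted p up to 0.0562). Of the pericyte markers, 1 of 12 rose and 1 fell (0 rose and 1 fell without SuHx 0, normoxia 0 or normoxia 1, 1 and 2 without SuHx 1 and 2 and 1 without normoxia 2): Rgs5, a regulator of G protein signalling, fell from 3811, 3188 and 4440.3 to 1221, 2291 and 1832, and Higd1b rose 1.47-fold, a call lost without SuHx 0, normoxia 0 or normoxia 1 (limma adjusted p up to 0.0636). Among fibroblast markers, 4 of 14 tested members rose, 0 fell and 10 were not called (1 rose and 0 fell without SuHx 0, normoxia 0 or normoxia 1 and 2 and 0 without SuHx 2). Cthrc1, which marks collagen-producing fibroblasts of injured lung, went from 70.8, 34.1 and 109 to 297, 288 and 303, and its SuHx values were close together. The call of lumican, Lum (2.72-fold higher), was lost without SuHx 0, SuHx 2, normoxia 0 or normoxia 1 (limma adjusted p up to 0.0591).

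Several genes of Notch signalling and of arterial endothelium fell. Dll4, the Notch ligand of arterial and tip endothelium, which VEGF is known to induce, dropped from 4269, 3278 and 3986 to 385, 424 and 344 (log2 fold change -3.31 ± 0.16, limma adjusted p = 1.99e-05). Hey1, a target of Notch, was at 333, 495 and 412 in normoxia and 106, 106 and 86.4 under SuHx. Efnb2, the ephrin of arterial cells, was at 5794, 5582 and 7492 in normoxia and 1228, 1239.5 and 1162 under SuHx. Of the Notch list, 2 of 21 tested members rose, 5 fell and 14 were not called (0 rose and 2 fell without SuHx 0, 1 and 6 without SuHx 1, 2 and 2 without SuHx 2 and 0 and 3 without normoxia 0 or normoxia 1), and of the arterial markers, 1 of 10 tested members rose, 5 fell and 4 were not called (0 rose and 3 fell without SuHx 0 or normoxia 0 and 1 and 3 without SuHx 2 or normoxia 2). The receptor Notch4 fell 1.50-fold, a call lost without SuHx 0, SuHx 2 or normoxia 1 (limma adjusted p up to 0.108). The arterial transcription factor Sox17 fell 1.72-fold, a call lost without SuHx 0, SuHx 2, normoxia 0 or normoxia 2 (limma adjusted p up to 0.0989). Against the list's direction, Heyl, a Notch target of vascular smooth muscle, rose 1.52-fold, a call lost without SuHx 0, normoxia 0 or normoxia 1 (limma adjusted p up to 0.0894). The elastic fibre gene Fbln5, also counted as an arterial marker, rose 1.93-fold, a call lost without SuHx 0 or normoxia 0 (limma adjusted p up to 0.0524).

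Of the VEGF and tip cell genes, 4 of 20 tested members rose, 6 fell and 10 were not called (2 rose and 2 fell without SuHx 0, 2 and 4 without SuHx 2 and 3 and 2 without normoxia 0). Esm1, a secreted proteoglycan of tip cells, was at 249, 196 and 420.3 in normoxia and 30.3, 43.6 and 47.7 under SuHx. Plvap, which forms the diaphragms of capillary fenestrae and caveolae, was at 17397, 16104 and 20128 in normoxia and 7416, 8552 and 8848 under SuHx. Vegfc, the ligand for lymphatic growth, rose from 394, 324 and 439 to 727, 905 and 677. The row of Figf (Vegfd) rose 4.71-fold, a call lost without SuHx 2 (limma adjusted p up to 0.0604). Vegfa, the ligand made by alveolar type 1 cells, was at 45759.6, 35889 and 31717 in normoxia and 22096, 26555 and 18600.1 under SuHx (1.68-fold lower), a call lost without SuHx 0, SuHx 2, normoxia 0 or normoxia 1 (limma adjusted p up to 0.0927). Flt1, a VEGF receptor, fell 1.54-fold, a call lost without SuHx 0, normoxia 0 or normoxia 1 (limma adjusted p up to 0.0738). Kdr, the main VEGF receptor of endothelium and a target of SU5416, was at 13535, 9198 and 11759 in normoxia and 9177, 9858 and 8393 under SuHx, with overlapping groups, and was not called (log2 fold change -0.32 ± 0.20, limma adjusted p = 0.293). Among angiopoietin and PDGF genes, 1 of 12 tested members rose, 3 fell and 8 were not called (0 rose and 2 fell without SuHx 0 and 2 and 3 without normoxia 2). Tek, the angiopoietin receptor, went from 10741, 11243 and 9950.4 to 5252, 5815 and 4917. Pdgfd, a PDGF ligand, went from 409.7, 329.8 and 359 to 193, 196 and 145. Angpt1, the ligand that stabilises vessels, fell 1.35-fold, a call lost without SuHx 0 or normoxia 0 (limma adjusted p up to 0.0587). Its antagonist Angpt2 rose 2.07-fold, a call lost without SuHx 0 (limma adjusted p up to 0.0641).

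Axon guidance genes that also pattern vessels fell beside these. Of that list, 1 of 36 tested members rose, 8 fell and 27 were not called (median log2 fold change -0.39; 1 rose and 7 to 9 fell with any 1 library left out), Ntrk2 being the riser. Sema3g, a semaphorin of arterial endothelium, was at 12381, 10084 and 13872 in normoxia and 2697, 2872 and 2743 under SuHx (log2 fold change -2.12 ± 0.19, limma adjusted p = 0.000390), with SuHx libraries within a narrow band. The netrin receptor Unc5d went from 116, 224 and 111 to 14.2, 8.41 and 12.7. Efna1, an ephrin that VEGF and TNF are known to induce in endothelium, went from 2210.0, 1877 and 2718 to 1105, 1187 and 1175.

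General endothelial markers did not move together. Pecam1 (7912, 7329.8 and 8878 in normoxia and 10401, 7814 and 11779.5 under SuHx) and the cadherin Cdh5 (17516, 14011 and 17317 in normoxia and 12759.6, 15294 and 11178 under SuHx) overlapped between the groups and were not called (limma adjusted p = 0.209 and 0.313). Of 14 pan-endothelial markers 1 rose and 5 fell, with a median log2 fold change close to 0 (1 rose and 2 fell without SuHx 0, SuHx 2 or normoxia 0, 2 and 5 without SuHx 1, 1 and 3 without normoxia 1 and 2 and 3 without normoxia 2). The log2 fold change was above 0 in 7 and below 0 in 7 of these markers. Their summed signal was lower under SuHx, at 110929, 111603 and 116737 in normoxia and 83129, 87672 and 84580 under SuHx. Eng, whose fall is given below, is in that sum. Clec14a, a lectin-like surface protein of endothelium, fell from 10128, 10077 and 13509 to 3789, 3820.3 and 4070.5, whereas Emcn, endomucin, rose from 1969.8, 2127 and 2568 to 4366, 4057 and 5444. Of 14 capillary markers 5 fell and none rose (0 rose and 2 fell without SuHx 0 and 0 and 3 without SuHx 2, normoxia 0 or normoxia 1): Car4, carbonic anhydrase 4 of gas-exchange capillaries, fell 1.59-fold, and Kit, of the other capillary type, fell 2.05-fold, a call lost without SuHx 0 or normoxia 0 (limma adjusted p up to 0.0616). Among 20 endothelial transcription factors 7 fell and none rose (0 rose and 2 fell without SuHx 0, SuHx 2 or normoxia 0 and 2 and 4 without normoxia 2). Gata2 was at 3390.3, 3402 and 3205 in normoxia and 1554, 1444 and 1799 under SuHx. Foxo1, which holds endothelium in quiescence, was at 1745, 1604 and 2023 in normoxia and 1078, 1145 and 978 under SuHx. The call of Sox7 (2.31-fold lower) was lost without SuHx 0, SuHx 2 or normoxia 0 (limma adjusted p up to 0.0743). The row of Lyve1 and rnf141 fell from 6310.2, 11209.5 and 7772 to 3174, 3216 and 3043, the 1 row called among 9 lymphatic markers (2 rose and 1 fell without SuHx 2). Of 9 venous markers Vcam1, an adhesion molecule for leukocytes, alone was called (1.53-fold higher), a call lost without SuHx 0 or normoxia 1 (limma adjusted p up to 0.0820). In that list 0 rose and 0 fell without SuHx 0 or normoxia 1, 1 and 2 without SuHx 1 and 3 and 1 without normoxia 2.

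**Figure D4:**
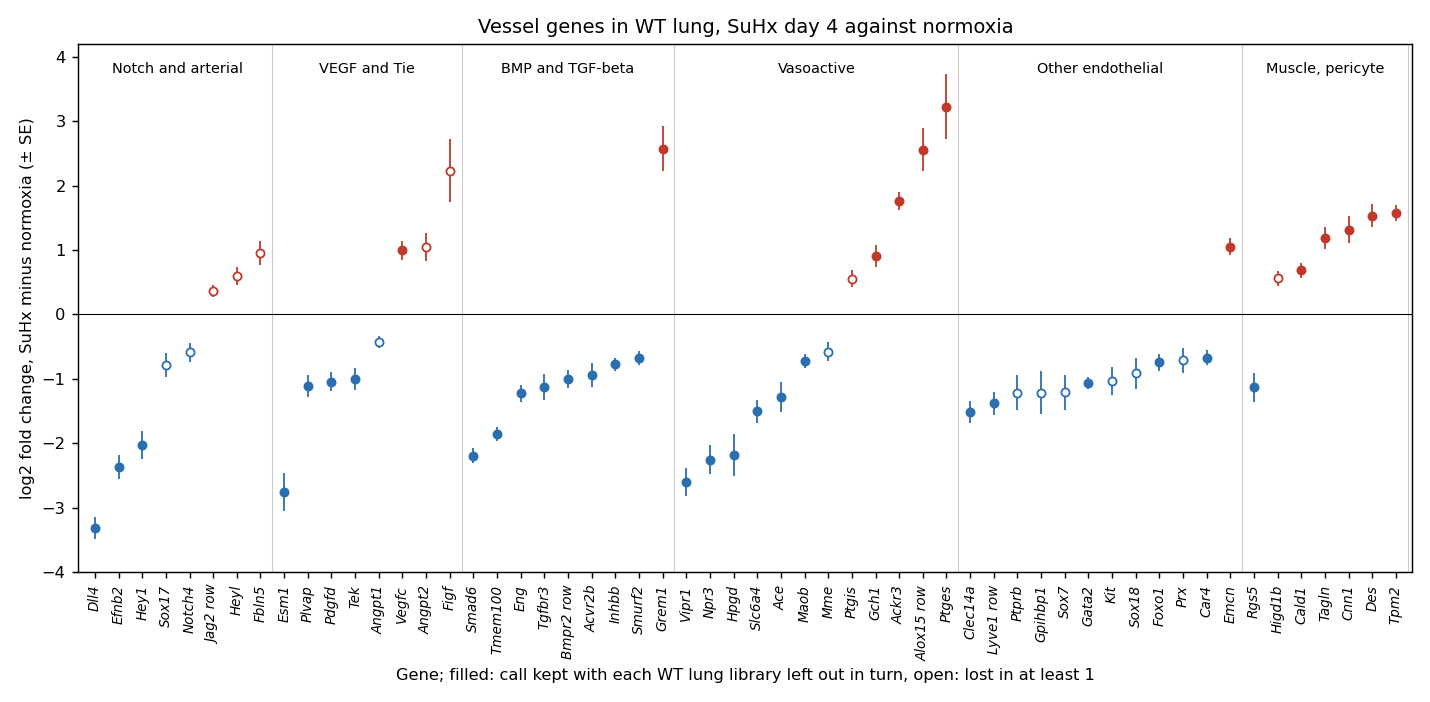
Log2 fold change (SuHx minus normoxia) ± standard error of the vessel genes reported here, grouped by pathway and ordered within a group. Red marks genes called higher and blue those called lower; filled points kept their call with each WT library left out, open points lost it in at least 1, and Dll4 and Ptges lie at the extremes.

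Genes of BMP signalling, in which inherited pulmonary arterial hypertension has its best-known mutations, fell in part, and receptors and feedback genes were among those that did. Of that list, 4 of 35 tested members rose, 10 fell and 21 were not called (median log2 fold change -0.20; 3 to 4 rose and 7 to 10 fell with any 1 library left out). Smad6, an inhibitory SMAD that BMP induces, was at 4183, 4216 and 5293 in normoxia and 1050.0, 1031 and 899 under SuHx (log2 fold change -2.19 ± 0.12, limma adjusted p = 2.29e-05). Tmem100, a BMP9 and BMP10 target of endothelium, was at 13961, 12669.5 and 14645 in normoxia and 3582, 4039.9 and 3779 under SuHx. The merged row of Bmpr2, the type II receptor, and Fam117b was at 22637, 22887 and 20938 in normoxia and 10819.5, 12679.8 and 9822 under SuHx. The co-receptor Eng, endoglin, was at 19341, 18863 and 18188 in normoxia and 8106, 9051 and 7076 under SuHx. All 4 falls left the groups well apart. Grem1, a secreted BMP antagonist, rose from 20.7, 11.9 and 19.2 to 120.1, 102 and 95.3. Kcnk3, a potassium channel mutated in the hereditary disease, was at 563, 469.6 and 666 in normoxia and 648, 674 and 594 under SuHx and was not called (limma adjusted p = 0.411).

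The TGF-beta and activin genes were divided: 5 of 22 tested members rose, 4 fell and 13 were not called (1 rose and 4 fell without SuHx 0 or normoxia 0, 2 and 6 without SuHx 1 and 3 and 4 without normoxia 1). Among receptors, Tgfbr3, betaglycan, fell from 4236, 6317 and 3838 to 2213, 2585 and 1736 and the activin receptor Acvr2b from 476, 521 and 449 to 267, 299 and 194. Inhbb, an activin subunit, fell 1.71-fold and Smurf2, a ubiquitin ligase of TGF-beta receptors, 1.60-fold.

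Among the called receptors and enzymes of the vasoactive list, more fell than rose. Of that list, 3 of 34 tested members rose, 9 fell and 22 were not called (2 rose and 4 fell without normoxia 0). Its median log2 fold change was 0.08, with 18 members above 0 and 16 below. Vipr1, the receptor of the vasodilator VIP, fell from 17481, 22184 and 18941 to 2851, 3055 and 3768 (log2 fold change -2.60 ± 0.21, limma adjusted p = 0.000288). Ace, which makes angiotensin II and sits on lung capillaries, was at 22826, 25654 and 19669 in normoxia and 11416, 9931 and 7153 under SuHx. The serotonin transporter Slc6a4 was at 1698, 1388 and 1523 in normoxia and 516, 711 and 426 under SuHx. Maob, which breaks down amines, fell 1.65-fold. Ackr3, a scavenging receptor of CXCL12 and adrenomedullin, rose from 2143, 2244 and 3075 to 7978, 8458 and 8631.

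Of the nitric oxide genes, 1 of 21 tested members rose, 1 fell and 19 were not called (1 rose and 2 fell without SuHx 1 or normoxia 2 and 2 and 1 without normoxia 1). Of the endothelin genes, 0 of 7 tested members rose, 1 fell and 6 were not called (0 rose and 0 fell without SuHx 1, SuHx 2, normoxia 0 or normoxia 1). The shares called in these lists, 9.52% and 14.3%, lay near the 13.5% of all rows. Npr3, the clearance receptor of natriuretic peptides, was at 2107, 3085 and 3282 in normoxia and 586, 752 and 440.1 under SuHx. Gch1, which makes the cofactor of nitric oxide synthase, was at 279, 328 and 293 in normoxia and 617, 423 and 688 under SuHx. Nos3, endothelial nitric oxide synthase (437, 781 and 579 in normoxia and 790.5, 790.4 and 756 under SuHx), and endothelin-1, Edn1 (1136, 1506 and 1446 in normoxia and 1465, 1888 and 1921 under SuHx), overlapped between the groups and were not called (limma adjusted p = 0.143 and 0.140). Mme, neprilysin, which degrades endothelin, fell 1.49-fold, a call lost without SuHx 1, SuHx 2, normoxia 0 or normoxia 1 (limma adjusted p up to 0.106).

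Among prostanoid genes, 3 of 20 tested members rose, 1 fell and 16 were not called (2 to 3 rose and 1 fell with any 1 library left out). Ptges, prostaglandin E synthase, went from 7.16, 8.52 and 9.97 to 99.3, 49.7 and 137, low signals throughout. Hpgd, which inactivates prostaglandins in lung, dropped from 2343, 1354 and 1193 to 242, 394 and 420.0 (log2 fold change -2.18 ± 0.33, limma adjusted p = 0.00345). The row of the lipoxygenase Alox15 and Pelp1 rose from 1749, 2003 and 1576 to 7662, 14932 and 9863, and prostacyclin synthase, Ptgis, rose 1.47-fold, a call lost without SuHx 0, SuHx 2, normoxia 0 or normoxia 2 (limma adjusted p up to 0.101). Of 25 potassium channel genes 2 rose and 4 fell, each call lost with at least 1 library left out (0 rose and 2 fell without SuHx 0, 1 and 8 without SuHx 1, 2 and 1 without SuHx 2, 1 and 3 without normoxia 0 and 1 and 4 without normoxia 1): Kcne4 rose 1.85-fold and Kcnd3, a channel of early repolarisation, fell 2.77-fold, and these calls were lost without SuHx 0 (limma adjusted p up to 0.0528) and lost without SuHx 2 (limma adjusted p up to 0.0537).

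Cholesterol synthesis genes rose by small amounts with small errors. Of the list, 14 of 23 tested members rose, 0 fell and 9 were not called (median log2 fold change 0.49; 10 to 13 rose and 0 fell with any 1 library left out). Idi1, an isomerase of the isoprenoid steps, was at 542, 547 and 617 in normoxia and 1365, 1295 and 1294 under SuHx (log2 fold change 1.21 ± 0.10, limma adjusted p = 0.000284). Cyp51, which demethylates lanosterol, was at 994, 1105 and 1158 in normoxia and 2528, 2319.6 and 2514 under SuHx. Dhcr7, of the last step, rose 2.15-fold and Sqle, squalene epoxidase, 1.67-fold. Genes of fatty acids and PPAR-gamma gave fewer calls: 1 of 24 tested members rose, 3 fell and 20 were not called (0 rose and 0 fell without SuHx 0, 3 and 4 without SuHx 1, 0 and 1 without SuHx 2 or normoxia 0, 2 and 0 without normoxia 1 and 2 and 4 without normoxia 2). Srebf1, the regulator of fatty acid synthesis, fell 1.74-fold, a call lost without SuHx 0, SuHx 2, normoxia 0 or normoxia 1 (limma adjusted p up to 0.0848).

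Glycolytic genes rose by less. Of the glycolysis and hypoxia list, 11 of 35 tested members rose, 2 fell and 22 were not called (median log2 fold change 0.38), but 2 rose and 1 fell without SuHx 0 or normoxia 0, 4 and 1 without SuHx 2 and 7 and 1 without normoxia 1. Eno1, enolase, was at 3339.7, 4019 and 3451 in normoxia and 5727, 5415 and 5966 under SuHx and kept its call. Aldoa (1.48-fold), Ldha (1.61-fold) and Pgam1 (1.37-fold) also rose: the call of Aldoa was lost without normoxia 0 (limma adjusted p up to 0.0695), that of Ldha lost without SuHx 0 or normoxia 0 (limma adjusted p up to 0.0639) and that of Pgam1 lost without SuHx 0 or normoxia 0 (limma adjusted p up to 0.0718). Mxi1, a hypoxia-induced antagonist of MYC, fell from 1874, 1923 and 1783 to 1347, 1448 and 1260.0. Of the oxygen-sensing factors themselves, Hif1a mRNA was at 2154, 2257 and 2147 in normoxia and 2232, 2612 and 1843 under SuHx and was not called (limma adjusted p = 0.951), and Epas1, HIF-2alpha, abundant in lung endothelium, was at 82103, 87039 and 80881 in normoxia and 46171, 53891 and 38266 under SuHx (1.82-fold lower), a call lost without SuHx 0, SuHx 2, normoxia 0 or normoxia 1 (limma adjusted p up to 0.0994). No oxidative phosphorylation subunit was called by limma among 30 tested (7 at an unadjusted p under 0.05), and 29 of the 30 log2 fold changes were above 0 (median 0.29).

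Stress responses rose in part. Of the NRF2 targets, 7 of 19 tested members rose, 0 fell and 12 were not called (4 rose and 0 fell without SuHx 0, 2 and 0 without normoxia 0 and 7 and 1 without normoxia 2); Srxn1, which repairs oxidised peroxiredoxin, went from 123, 129.6 and 85.9 to 341, 624 and 407. Hmox1, haem oxygenase, rose 2.01-fold, a call lost without SuHx 0, SuHx 2 or normoxia 0 (limma adjusted p up to 0.0729). Of the ATF4 and unfolded protein response genes, 6 of 25 tested members rose, 0 fell and 19 were not called (3 rose and 0 fell without normoxia 0). Hspa5, the main chaperone of the endoplasmic reticulum, was at 11792, 9235 and 10356 in normoxia and 17699, 15862 and 18614 under SuHx. The disulfide isomerase Pdia4 was at 3596, 3017 and 3426 in normoxia and 5297, 4722 and 5326 under SuHx. Creld2, a secreted protein of the same response, rose 1.46-fold from 619, 577 and 679 to 918, 861 and 946. Glucocorticoid-induced genes gave 4 rises and 2 falls among 15 (2 rose and 0 fell without SuHx 0 or SuHx 2, 4 and 1 without SuHx 1, 2 and 1 without normoxia 0 or normoxia 2 and 6 and 0 without normoxia 1), of which Sgk1, an ion transport kinase (2058, 1961 and 1955 in normoxia and 3001, 3047 and 2965 under SuHx), and Lcn2 kept their calls. Zbtb16 was at 554, 7138 and 3778 in normoxia and 304, 305 and 220.4 under SuHx, with a normoxia group spread over more than 10-fold, and the call of its fall was lost without SuHx 0, SuHx 2, normoxia 1 or normoxia 2 (limma adjusted p up to 0.0831). Of 29 immediate early and heat shock genes 4 rose (1 rose and 0 fell without SuHx 0, SuHx 2 or normoxia 0 and 3 and 1 without normoxia 1), and Nr4a3, an orphan nuclear receptor, kept its call (37.4, 23.9 and 26.8 in normoxia and 66.2, 81.1 and 64.0 under SuHx). No circadian gene was called by limma among 18 (2 at an unadjusted p under 0.05), but 1 rose and 2 fell without normoxia 1 and 0 and 3 without normoxia 2. Tef was at 3519, 10297 and 2789 in normoxia and 2203, 3648 and 2959 under SuHx, normoxia 1 standing far above the others, and Nr1d1 at 1407, 5142 and 4234 in normoxia and 2278, 3874 and 2737 under SuHx.

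The endoplasmic reticulum stress element (CCAAT, any 9 bases, CCACG) was searched on both strands after the data had been seen. It was found in 4 of the 21 tested unfolded protein response genes with a promoter, 2 of them among the 5 that rose, Hspa5 at chr3:38452766-38453015 (plus strand) and Creld2 at chr7:121789134-121789383 (plus strand). It was found in 21 of all 27457 promoters (0.0765%). Their 250 bases before the start in GRCr8 are shown with the element in capitals.
Hspa5: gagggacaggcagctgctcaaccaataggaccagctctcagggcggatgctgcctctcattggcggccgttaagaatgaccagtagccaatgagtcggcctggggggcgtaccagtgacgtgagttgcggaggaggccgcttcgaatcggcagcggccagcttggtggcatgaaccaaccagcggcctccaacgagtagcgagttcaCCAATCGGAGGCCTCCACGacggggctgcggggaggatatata
Creld2: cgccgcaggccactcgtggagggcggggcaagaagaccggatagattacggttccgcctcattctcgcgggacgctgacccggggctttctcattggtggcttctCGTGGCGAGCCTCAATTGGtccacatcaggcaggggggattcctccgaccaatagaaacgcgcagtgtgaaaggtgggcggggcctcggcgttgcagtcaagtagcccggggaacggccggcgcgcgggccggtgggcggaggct
In Creld2 the element is on the opposite strand, so that it reads CGTGG first. Among rows called higher 0.616% of promoters held it, among those called lower 0.138% and among those not called 0.102%.

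Some chemokine and interleukin receptor genes rose. Of 52 chemokines, interleukins and their receptors, 10 rose and 2 fell (median log2 fold change 0.01; 8 rose and 0 fell without SuHx 0, 8 and 1 without SuHx 1, 7 and 1 without SuHx 2, 7 and 0 without normoxia 0, 9 and 4 without normoxia 1 and 11 and 1 without normoxia 2). The interferon-induced chemokine Cxcl10 was at 55.7, 30.7 and 33.0 in normoxia and 248, 395 and 267 under SuHx and its relative Cxcl11 at 2.39, 6.82 and 3.07 in normoxia and 17.0, 41.3 and 27.6 under SuHx. Ccl22, which draws regulatory T cells, went from 18.3, 13.6 and 16.9 to 69.1, 91.8 and 95.3. The decoy receptor Il1r2 went from 28.6, 39.2 and 42.9 to 199.6, 187 and 248. The signalling receptor Il1r1 went from 2658, 2295 and 2268 to 4029.7, 4688 and 3818. Of 29 interferon-stimulated genes only Rsad2, an antiviral enzyme (577, 319 and 446 in normoxia and 978, 1272 and 1129 under SuHx), and Ifit1 rose, a share near the background of 7.09% (1 rose and 0 fell without SuHx 0, SuHx 2, normoxia 0 or normoxia 1, 3 and 1 without SuHx 1 and 2 and 1 without normoxia 2). The call of Ifit1 (34.2, 23.9 and 74.4 in normoxia and 666, 603 and 707 under SuHx) was lost without SuHx 0, SuHx 2, normoxia 0 or normoxia 1 (limma adjusted p up to 0.0702). No MHC class II gene was called by limma among 10 (1 at an unadjusted p under 0.05), with Cd74 at 27794, 35478 and 29209.7 in normoxia and 26794, 27149 and 32514 under SuHx.

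Complement and clotting genes rose in part. The 3 chains of C1q, which starts the classical pathway and is made by macrophages, rose by similar amounts. C1qa was at 682, 776 and 701 in normoxia and 2100.0, 2142 and 3013 under SuHx. C1qb was at 597, 753 and 584 in normoxia and 2178, 1944 and 2917 under SuHx. C1qc rose 3.04-fold from 839, 1011 and 748 to 2492, 2354 and 3035. Its proteases C1r and C1s rose 1.50-fold and 1.55-fold, and 7 of 26 tested members rose, 1 fell and 18 were not called in the whole list (5 rose and 0 fell without SuHx 0 or normoxia 0, 6 and 0 without normoxia 1 and 6 and 3 without normoxia 2). Of the coagulation and fibrinolysis genes, 6 of 23 tested members rose, 1 fell and 16 were not called (2 rose and 0 fell without SuHx 0, 8 and 3 without SuHx 1, 4 and 0 without SuHx 2 or normoxia 1 and 3 and 1 without normoxia 0). Plaur, the urokinase receptor, went from 193, 305 and 210.1 to 866, 677 and 1350.1, and Anxa2 rose 1.37-fold, a call lost without SuHx 0 or normoxia 0 (limma adjusted p up to 0.0664).

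Red cell genes rose most among the cell type markers. Of the erythroid markers, 16 of 20 tested members rose, 0 fell and 4 were not called (median log2 fold change 2.37), 13 to 16 with 1 library left out, and their summed signal was 5352, 4616 and 4349.7 in normoxia and 10082, 13619 and 15667 under SuHx. Slc4a1, the band 3 anion exchanger, was at 254, 75.0 and 80.5 in normoxia and 1214, 1880.3 and 1576 under SuHx. The globin chaperone Ahsp was at 109.8, 29.8 and 54.4 in normoxia and 513, 757 and 1021 under SuHx. Kel, of the Kell blood group, rose 26.5-fold, and the membrane skeleton protein Epb42 5.29-fold. The haem synthesis enzyme Alas2 went from 803, 561 and 579.8 to 2336, 3419.6 and 4254. Beta-globin, Hbb, which is not in the summed list, went from 42541, 27670.1 and 29844 to 101136, 139022 and 204024. SuHx 2 held the most Hbb, Ahsp and Alas2.

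Fewer markers of the white cells were called. Of 16 neutrophil markers 2 rose (Il1r2, and Lcn2, which epithelium makes too), but 6 rose and 0 fell without normoxia 0. Their median log2 fold change was 1.17 and 8 had an unadjusted p under 0.05. The groups lay apart in 4 of the 16, beside 36.8% of all rows. The summed signal of all 16 was 5310.2, 3485 and 6540.1 in normoxia and 10463, 14059 and 15541 under SuHx. Lcn2 made up a large part of that sum and went from 1853, 1357 and 1801 to 6534, 9548 and 7463. The sum without Lcn2 was not tested. Of the monocyte and interstitial macrophage markers, 4 of 16 tested members rose, 2 fell and 10 were not called (4 rose and 0 fell without SuHx 0 and 4 and 1 without SuHx 1, SuHx 2, normoxia 0 or normoxia 1): Ms4a7 and the C1q chains rose, and Apoe fell 1.92-fold, a call lost without SuHx 0 (limma adjusted p up to 0.0553). No marker of T and NK cells (16 tested, 0 at an unadjusted p under 0.05), B and plasma cells (13 tested, 0) or adipocytes (8 tested, 0) was called by limma. Among mast cell and eosinophil markers Gata2 and Kit fell (0 rose and 1 fell without SuHx 0 or normoxia 0), both of which endothelium expresses too, and no mast cell protease was called.

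Of the epithelial markers that were called, most fell. Of the alveolar type 1 markers, 1 of 13 tested members rose, 4 fell and 8 were not called (0 rose and 1 fell without SuHx 0, SuHx 2 or normoxia 0, 0 and 4 without SuHx 1 and 0 and 2 without normoxia 1), beside 6.41% lower over all rows. Their summed signal was 284135, 282893 and 220778 in normoxia and 206140.1, 204753 and 207417 under SuHx, without overlap. Rtkn2 went from 9269.7, 8329.6 and 6085 to 3538, 3998 and 3570.0, while Ager, above, was not called (limma adjusted p = 0.945). Of the alveolar type 2 markers, 0 of 12 tested members rose, 2 fell and 10 were not called (0 rose and 1 fell without SuHx 0, SuHx 1, SuHx 2, normoxia 0 or normoxia 1). The log2 fold change was below 0 in 11 of the 12. The groups lay apart in 5 of the 12, a share near the 36.8% of all rows. Their summed signal was 828063, 1181032 and 799152 in normoxia and 656923, 550085 and 680192 under SuHx. That sum includes Lyz2, which is also on the macrophage list. Lyz2 was the highest row of every normoxia library (1.43%, 2.01% and 1.47% of the total), and the sum without it was not tested. Etv5, a transcription factor of these cells, was at 2453, 3307 and 2276 in normoxia and 1309, 1306 and 1276 under SuHx, and Sftpc was not called (limma adjusted p = 0.438). Slc34a2 fell 1.62-fold, a call lost without SuHx 0, SuHx 1, SuHx 2, normoxia 0 or normoxia 1 (limma adjusted p up to 0.120). Of the airway secretory markers, 2 of 10 fell (0 rose and 1 fell without SuHx 0, SuHx 1, normoxia 0, normoxia 1 or normoxia 2), with a summed signal of 190059, 203554 and 206379 in normoxia and 129689.5, 130920.1 and 142630.5 under SuHx, and Sec14l3, a lipid-binding protein of airway cells, was at 34834, 45509.7 and 30770.1 in normoxia and 18298, 13883 and 14962 under SuHx. Of 14 cilium markers 1 fell (0 rose and 0 fell without SuHx 0, normoxia 0 or normoxia 1 and 1 and 1 without SuHx 2), a share near the background of 6.41%.

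Developmental signals were called in both directions, beside 7.09% of all rows called higher and 6.41% called lower. Of the Wnt and Hedgehog genes, 1 of 39 tested members rose, 6 fell and 32 were not called (1 rose and 2 fell without SuHx 0 or normoxia 0, 1 and 3 without SuHx 2 and 1 and 1 without normoxia 1). Hhip, a Hedgehog-binding inhibitor linked to lung function, was at 6077, 3854 and 5077 in normoxia and 2532, 3007 and 1915 under SuHx, and Dkk3, a secreted Wnt modulator, rose from 1812, 1350.0 and 1904 to 3304, 3498 and 2793. Of the retinoic acid genes, 2 of 19 tested members rose, 4 fell and 13 were not called (1 rose and 2 fell without SuHx 0 or normoxia 1, 1 and 1 without SuHx 2, 1 and 3 without normoxia 0 and 2 and 2 without normoxia 2). Lrat, which stores vitamin A as ester, dropped from 946, 828 and 660.3 to 216, 314 and 228. Rarb, a receptor that retinoic acid induces, went from 621, 518 and 440.4 to 1076, 1172 and 852.

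**Figure D5:**
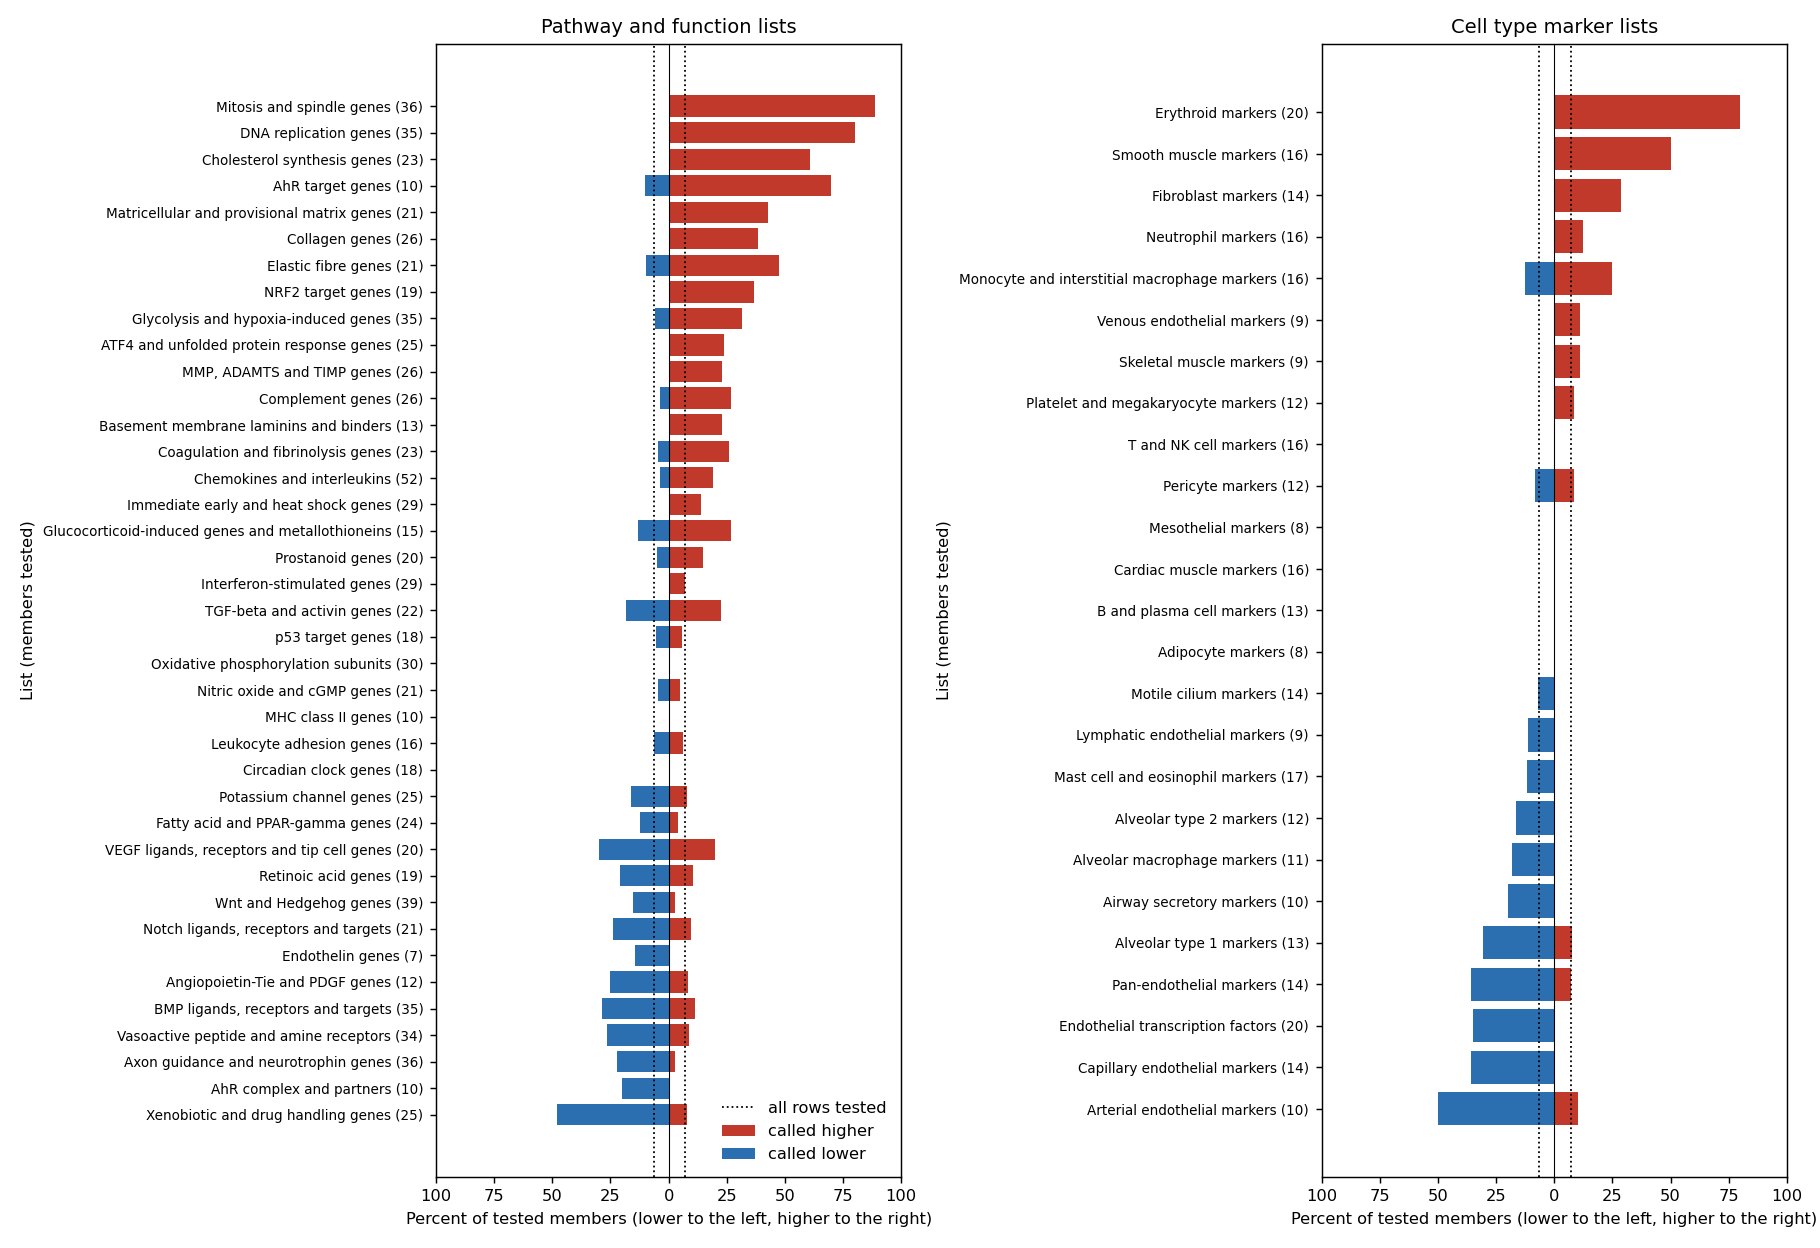
Share of tested members called higher (red, to the right) and lower (blue, to the left) under SuHx in each of 64 gene lists, with the number tested in brackets; dotted lines mark 7.09% higher and 6.41% lower, the shares over all rows tested. Mitosis, DNA replication and erythroid genes reach furthest right, and arterial and xenobiotic genes furthest left.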

How the data were processed

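RNA was sequenced from total lung of WT rats in normoxia (3 libraries) and at day 4 of SuHx (3 libraries), from Ahr-KO lungs under SuHx and from isolated endothelial cells. The deposited table holds 1 signal per row and library, and its unit is not stated. By library, 83.0 to 84.7% of values under 1000 steps were whole multiples (within 0.05) of 1 step per library. The values were therefore read as estimated reads divided by 1 factor per library, an inference from the values. The genome build rn6 and FastQC are named in the submitters' processing notes; an aligner, a counter and a scaling method were not given in the sources used here. Rows that merge several symbols (994 of those tested) were kept as deposited. The columns' suffixes 0 to 2 name the libraries, since no label ties a column to 1 sample of its group.

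Rows with a mean of at least 1 over the 6 WT lungs were tested with limma 3.58.1 (R 4.3.3) on log2(signal + 1), with a mean per group, a trended prior variance, 9 lung libraries in the fit and a two-sided Benjamini-Hochberg adjusted p under 0.05. The fit was tested on simulated data. Tables were handled in Python 3.11.15 with pandas 2.3.3 and numpy 2.4.6. The members and the 64 gene lists were chosen with earlier results of these data known. Of 1214 listed names, 1101 matched a row of 1 symbol, 83 a merged row, 10 a synonym and 6 no row. Genes named are the 15 largest rises and falls and the 10 largest changes in signal each way among calls kept without each library, up to 5 called members a list by adjusted p (the 2 highest where none was called) and a panel of 20. The rises, falls and changes in signal also needed no overlap between the groups, a mean of at least 1 in both and a row of 1 symbol. Rows with placeholder names, such as those starting with LOC or RGD, and mitochondrial rows were left out there. Some genes this rule names are not reported here. Alternatives were the pseudocount (0.1), the filter, 2 other scalings, the prior without trend, 6 or 12 libraries, a fold minimum, a suffix block and leaving out each library.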

Additional observations from a re-analysis of the deposited data

How the results depend on the processing

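Against 2050 calls (1077 higher, 973 lower), leaving out 1 WT lung gave 863 to 2280 calls, 542 to 1129 of them higher and 321 to 1178 lower. A minimum of 1 on the absolute log2 fold change left 747, of which 492 were higher and 255 lower. The prior without trend gave 629 lower, and the fit of the 6 WT lungs alone 643 lower. With the suffix as a replicate block 3393 rows were called, 1550 higher and 1843 lower. Other settings stayed within 1.5 times, and no named gene reversed. Same-numbered libraries of WT normoxia and WT SuHx did not deviate together (correlations -0.04, 0.07 and 0.09). The Ahr-KO lungs, which are also in the block fit, were not compared in this way. Whether the suffix marks a pairing or batch was thus not tested over all lungs of that fit. Of 221 named genes called, 140 kept their call without each library, and 139 of these also under the 8 other settings that change the scaling, filter, pseudocount, prior or libraries, the exception being Cxcl3 with 12 libraries. The cause of these differences was not tested. With 3 libraries a group, an exact permutation test of 1 gene cannot go below p = 0.1, so calls rest on the spread shared across rows, and 4823 rows had an unadjusted p under 0.05. Genes near a signal of 1 stand on single reads, and a fold there is understated.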
